A study of Mus musculus with 6 samples.

Results

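Chromatin accessibility at 10 heat shock and chaperone genes was examined in freshly isolated muscle stem cells (MuSCs), the resident stem cells of skeletal muscle. The genes were Hsf1, Hspa1a, Hspa1b, Hspa8, Hspa5, Hsph1, Dnajb1, Hsp90aa1, Hsp90ab1 and Hspb1, of 14083 genes named in the peak table. Their peaks were those that the table assigns to the gene symbol, 21 in number, and 1 peak without an assigned gene that lies inside Hsf1. This gave 22 peaks of 75412. All 22 had a mean value above 10, the minimum for testing.

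The libraries came from ATAC-seq, in which the Tn5 transposase cuts and tags open DNA, with 50000 cells in each library. There were 3 control and 3 Taf4a sKO libraries, all from mice on the C57BL/6 background. Taf4a sKO mice carried Pax7CreERT and Taf4a flox/flox and received tamoxifen, which removes exons 11 and 12 of Taf4a in cells that express Pax7. Controls were Taf4a flox/flox littermates, either without Pax7CreERT or with it, so the floxed allele is common to both groups. The study used mice aged 8 to 20 weeks and dates MuSCs of both genotypes from tamoxifen. Its list of mouse strains names tamoxifen treatment for Taf4a sKO mice only. Whether the controls of these libraries received it is not stated outright in the sources used here. The Cre driver limits the deletion to Pax7-expressing cells and their progeny, and cells of other types that pass the sort keep the gene. MuSCs were released from muscle with dispase and collagenase and sorted as integrin alpha 7 positive cells without CD45, CD31 and SCA1, or by a Pax7-ZsGreen reporter. In the peak over exon 12 of the targeted gene, listed under the symbol Taf4, the values were 65, 78 and 137 in control and 44, 22 and 25 in Taf4a sKO MuSCs. All Taf4a sKO libraries lay below all controls there, a log2 fold change of -1.58 (SE 0.30, adjusted p = 0.000336 from limma).

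Heat shock proteins are chaperones that keep other proteins folded, and cells make more of the inducible ones when heat, oxidation or mechanical and enzymatic treatment damages proteins. The transcription factor HSF1 is held inactive by chaperones in unstressed cells, forms trimers on stress and binds heat shock elements in the promoters of its targets. Isolation of MuSCs takes hours of warm digestion and is known to switch on stress and immediate early genes, so these promoters were examined in the cells as isolated. All libraries came from isolated cells, so an effect of isolation on accessibility was not tested.

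For 6 of the 10 genes RefSeq promoter windows were at hand (build GRCm38.p6), each from 250 bases before to 50 bases after the start of a transcript. Those of 4 genes are printed here up to the last base before the start, because their letters differ in the elements that heat or stress in the endoplasmic reticulum (ER) act through. Capitals mark pairs of heat shock units (GAANNTTC or TTCNNGAA), CCAAT boxes (CCAAT or ATTGG), which the factor NF-Y binds, and the ER stress element (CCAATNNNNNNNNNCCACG or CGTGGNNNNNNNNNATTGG), whose first or last 5 letters are themselves a CCAAT box. The windows are Hspa1a at chr17:34972157-34972406 on the minus strand, Hspb1 at chr5:135887669-135887918 on the plus strand, Hsph1 at chr5:149636337-149636586 on the minus strand and Hspa5 at chr2:34771840-34772089 on the plus strand.
Hspa1a: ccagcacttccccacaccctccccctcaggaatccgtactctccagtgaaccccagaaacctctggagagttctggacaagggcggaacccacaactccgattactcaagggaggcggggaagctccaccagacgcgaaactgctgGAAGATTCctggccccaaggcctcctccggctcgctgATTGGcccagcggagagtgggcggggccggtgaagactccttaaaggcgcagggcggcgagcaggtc
Hspb1: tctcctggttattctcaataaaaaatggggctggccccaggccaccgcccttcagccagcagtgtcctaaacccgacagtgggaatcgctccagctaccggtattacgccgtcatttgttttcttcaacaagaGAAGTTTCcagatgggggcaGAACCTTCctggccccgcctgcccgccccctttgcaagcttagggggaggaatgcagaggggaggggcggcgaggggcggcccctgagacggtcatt
Hsph1: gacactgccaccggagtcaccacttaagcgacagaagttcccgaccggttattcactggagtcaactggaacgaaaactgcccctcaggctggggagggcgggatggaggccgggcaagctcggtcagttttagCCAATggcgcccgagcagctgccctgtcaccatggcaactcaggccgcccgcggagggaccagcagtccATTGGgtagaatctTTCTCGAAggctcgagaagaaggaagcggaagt
Hspa5: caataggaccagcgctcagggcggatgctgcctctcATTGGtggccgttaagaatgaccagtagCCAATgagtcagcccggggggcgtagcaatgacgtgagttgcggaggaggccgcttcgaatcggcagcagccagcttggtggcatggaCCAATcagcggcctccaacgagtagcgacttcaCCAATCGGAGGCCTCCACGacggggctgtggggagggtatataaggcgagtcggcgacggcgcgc
All 250 bases of each window lay inside the promoter peak of its gene.

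A pair of adjacent heat shock units was found in the windows of 4 of the 6 genes (Hspa1a, Hspa1b, Hspb1 and Hsph1) and in 15.1% of all 32817 windows of the same length. Hspb1 held 2 such pairs before the start. The full element of 3 alternating units (GAANNTTCNNGAA or TTCNNGAANNTTC) was found only for Hsph1 among the 6, after the start of transcription, and in 0.603% of all windows. CCAAT boxes were found for 5 of the 6 genes, Hspb1 being the exception, and in 37.4% of all windows. Hspa5 held 4 of them, and the one nearest to the start belonged to an ER stress element, which 0.119% of all windows contain. The letters TATAAA or TTTATA were in none of the 6 genes' windows and in 13.6% of all windows. With the 500 bases before the start searched instead, a pair of units was found for 5 of the genes, adding Dnajb1, beside 24.3% of windows. The 3-unit element was then found for none of them, beside 0.966%, and CCAAT boxes for the same 5 genes as before, beside 52.6%. A gene was counted if any of its windows matched, and Dnajb1 and Hsph1 had 2 windows each, while the shares are of single windows. The windows of Hspa1a and Hspa1b are nearly identical, so their matches are not independent. All motifs were searched on both strands, and a match describes letters, not a bound site.

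The windows of Hspa1a and Hspa1b, neighbouring genes for nearly the same protein, shared 296 of 300 bases (98.7%). Counted from 1 at the base 250 before the start, the changes from Hspa1a to Hspa1b were C44T, T47C, T249G and C276T, none of them in a marked element. Of the 36-base words in the Hspa1a promoter peak, 36 being the read length, 39.6% were also present in the Hspa1b promoter peak, and these made up 24.6% of the Hspa1b peak. The authors removed multi-mapping reads, so the values of these 2 peaks are uncertain where the copies are identical. The libraries were paired-end, so a pair can still be placed by its other end.

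The deposited values are reads per peak scaled by the authors for sequencing depth and rounded. They summed over all peaks to 37722015, 35226223 and 42803315 in the control libraries and to 44311913, 41661725 and 41948821 in the Taf4a sKO libraries. Peaks were compared with limma on log2(value + 1), and a peak was called at an adjusted p under 0.05, with Benjamini-Hochberg adjustment over 75384 peaks. On this scale the median log2 fold change of all peaks was 0.105 and 66.8% of the calls were higher in Taf4a sKO MuSCs. When libraries were rescaled by the median of ratios, that is by the median over peaks of each library's ratio to the mean profile, the median became -0.007 and 53.0% of the calls were higher. Because the shift is about as large as the differences seen at most of the promoters here, both values are given below, with the deposited scale first.

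None of the 10 promoter peaks was called on the deposited scale, and none reached an unadjusted p under 0.05 in limma. Among the promoter peaks of all 13245 protein-coding genes with one, 9.54% were called higher and 4.55% lower, and 19.3% had an unadjusted p under 0.05. With median-of-ratios scaling 4 of the 10 promoters fell, those of Dnajb1, Hsp90ab1, Hspa5 and Hspb1, and none rose, against 23.1% lower and 9.66% higher among all promoters. The falls were small, between 0.16 and 0.25 on the log2 scale. In a population of sorted cells, a smaller share of cells with an open promoter and a less open promoter in each cell cannot be told apart.

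**Figure D1:**
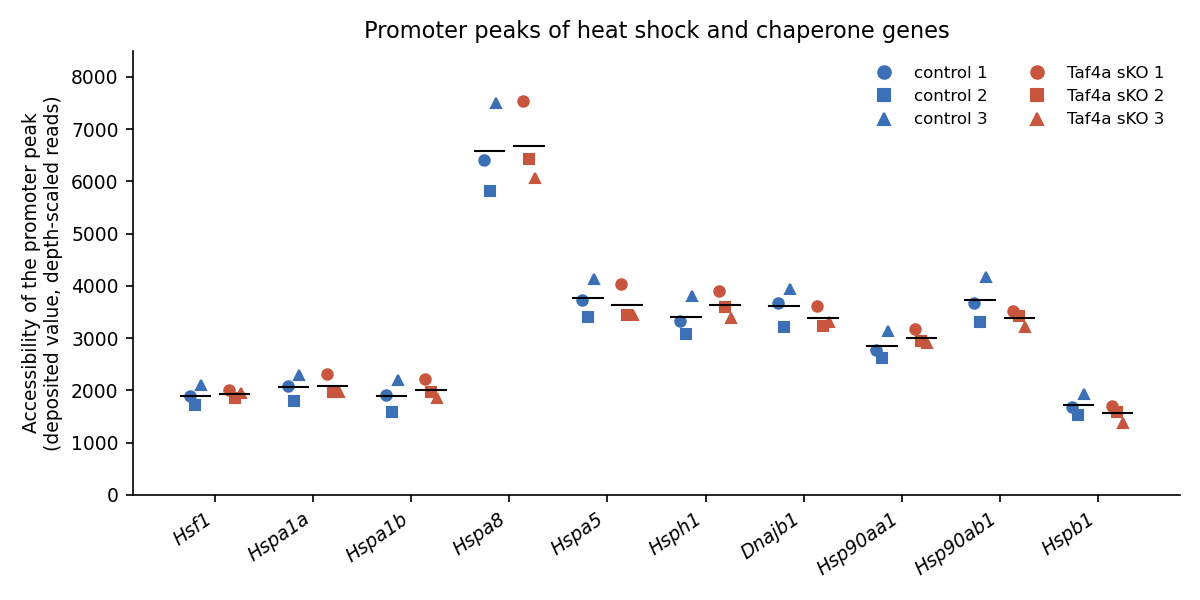
Deposited value (depth-scaled reads) of the promoter peak of each of the 10 genes in each library, with 3 control libraries in blue and 3 Taf4a sKO libraries in red, symbols for replicates 1 to 3 and black lines for the group means. The genotypes overlap at all 10 promoters, control 2 is the lowest control and control 3 the highest control throughout.

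Hsf1 encodes the master regulator of the response. Its promoter peak (chr15:76476977-76478263) also covers a start site of Bop1, a ribosome biogenesis gene read in the other direction, so the signal cannot be assigned to Hsf1 alone. Its values were 1888, 1709 and 2094 in control and 2004, 1853 and 1948 in Taf4a sKO MuSCs. The Taf4a sKO libraries lay within the range of the controls, with a log2 fold change of 0.03 (SE 0.10, adjusted p = 0.827 from limma) that became -0.08 with median-of-ratios scaling.

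HSP70 proteins bind exposed stretches of unfolded proteins, and Hspa1a and Hspa1b are the strongly heat-inducible members of that family. The Hspa1a promoter peak (chr17:34971884-34972810), which also holds a start site of the neighbour Hspa1l, measured 2080, 1790 and 2296 in control and 2306, 1966 and 1973 in Taf4a sKO MuSCs. At Hspa1b (chr17:34958837-34960306) the values were 1902, 1588 and 2202 in control and 2218, 1958 and 1845 in Taf4a sKO MuSCs. In both, Taf4a sKO 1 exceeded every control by a small margin and the other libraries were interleaved. The log2 fold changes were 0.02 (SE 0.11, adjusted p = 0.894 from limma) and 0.09 (SE 0.12, adjusted p = 0.578), and -0.09 and -0.02 with median-of-ratios scaling.

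Hspa8 encodes the constitutive cytosolic HSP70, which every cell uses. Its promoter peak (chr9:40800000-40802163) had the highest values of the set, with 6409, 5822 and 7497 in control and 7530, 6425 and 6069 in Taf4a sKO MuSCs. The spread among libraries of the same genotype exceeded the difference between genotypes, a log2 fold change of 0.02 (SE 0.11, adjusted p = 0.885 from limma) that was -0.09 after median-of-ratios scaling. On that scale the promoter was called lower without Taf4a sKO 1 (-0.15, adjusted p = 0.0116 from limma) and was at -0.03 without Taf4a sKO 3.

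Hspa5 encodes BiP, the HSP70 of the ER lumen and a marker of the unfolded protein response. Across its promoter (chr2:34771395-34772747) values of 3736, 3411 and 4134 were measured in control and 4040, 3442 and 3433 in Taf4a sKO MuSCs. Taf4a sKO 1 lay among the controls, and Taf4a sKO 2 and 3 lay next to the lowest of them. The log2 fold change of -0.05 (SE 0.10, adjusted p = 0.748 from limma) was not called. With median-of-ratios scaling it fell by 0.16 on the log2 scale (SE 0.05, adjusted p = 0.0117 from limma), a call that was lost when Taf4a sKO 2 or 3 was left out.

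Hsph1 encodes HSP110, a nucleotide exchange factor for HSP70, and is a heat shock target itself. Its promoter (chr5:149635702-149636859), with the 3-unit element, measured 3326, 3069 and 3812 in control and 3901, 3594 and 3392 in Taf4a sKO MuSCs. Taf4a sKO 1 lay above all controls and the other Taf4a sKO libraries lay inside their range. The log2 fold change was 0.10 (SE 0.10, adjusted p = 0.489 from limma) and -0.02 with median-of-ratios scaling.

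Dnajb1 encodes the inducible HSP40, which stimulates the ATPase of HSP70 and recruits it back to HSF1 to end the response. Its promoter peak (chr8:83607726-83608940), which overlaps the neighbouring gene Tecr, had values of 3665, 3219 and 3932 in control and 3611, 3230 and 3302 in Taf4a sKO MuSCs. All Taf4a sKO values lay between the lowest control and the other controls, Taf4a sKO 2 and 3 near the lowest and Taf4a sKO 1 near control 1. On the deposited scale the log2 fold change was -0.09 (SE 0.10, adjusted p = 0.517 from limma). With median-of-ratios scaling the promoter fell by 0.20 (SE 0.04, adjusted p = 0.00146 from limma), and it was called in each of the 6 fits that left a library out.

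HSP90 proteins mature kinases and steroid receptors and hold HSF1 inactive, Hsp90aa1 being the inducible and Hsp90ab1 the constitutive cytosolic form. The Hsp90aa1 promoter (chr12:110695680-110696947) lay at the start of its main coding transcripts, with its centre 6415 bp inside the longest gene model. There 2780, 2623 and 3140 were measured in control and 3178, 2935 and 2899 in Taf4a sKO MuSCs. The ranges overlapped, and the log2 fold change was 0.08 (SE 0.10, adjusted p = 0.562 from limma), or -0.03 with median-of-ratios scaling.

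At the Hsp90ab1 promoter (chr17:45572444-45574579) the values were 3680, 3310 and 4173 in control and 3523, 3427 and 3218 in Taf4a sKO MuSCs. Taf4a sKO 3 was below every control, and the other Taf4a sKO libraries fell between control 2 and control 1. The log2 fold change was -0.13 (SE 0.10, adjusted p = 0.336 from limma). With median-of-ratios scaling it was -0.24 (SE 0.04, adjusted p = 0.000374 from limma) and was called in all 6 fits without a library.

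Hspb1 encodes HSP27 (HSP25 in mice), a small heat shock protein that binds unfolding proteins without ATP and is abundant in muscle. Its promoter (chr5:135887474-135889003) gave 1685, 1523 and 1927 in control and 1708, 1580 and 1381 in Taf4a sKO MuSCs. Here too Taf4a sKO 3 lay below every control while the other libraries of both genotypes were mixed. The log2 fold change was -0.14 (SE 0.11, adjusted p = 0.356 from limma), and with median-of-ratios scaling it was -0.25 (SE 0.07, adjusted p = 0.00693 from limma), called in all 6 fits without a library.

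**Figure D2:**
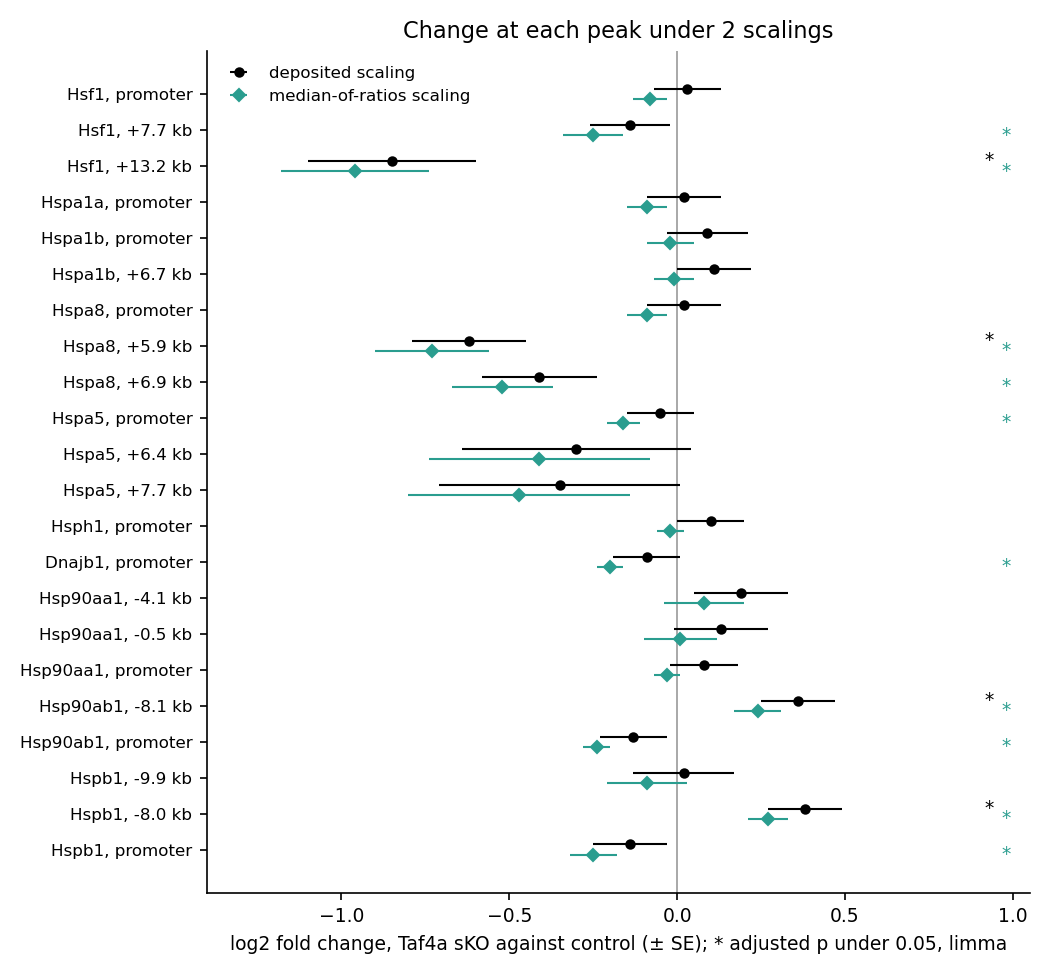
Log2 fold change of Taf4a sKO against control with its standard error for the 22 peaks, named by gene and by promoter or distance in kb of the peak centre from the 5' end of the gene, on the deposited scale (black circles) and with median-of-ratios scaling (green diamonds). Asterisks mark an adjusted p under 0.05, which no promoter has on the deposited scale and 4 have with median-of-ratios scaling, and 8 peaks change sign between the scales by the values plotted.

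Levels of different genes were compared per kb of peak. In control MuSCs the promoters of Hspa8 (3040 ± 393 per kb, SD, n = 3), Dnajb1 (2970 ± 296), Hsph1 (2940 ± 326) and Hspa5 (2780 ± 268) formed the upper group, and these neighbours did not differ beyond their spread. Hsp90aa1 (2250 ± 209) and Hspa1a (2220 ± 274) followed and overlapped with each other. Below them came Hsp90ab1 (1740 ± 203), Hsf1 (1470 ± 150), Hspa1b (1290 ± 209) and Hspb1 (1120 ± 133), and each of these overlapped with its neighbour within the SDs. The order in Taf4a sKO MuSCs was alike in its groups, with Hsph1 first (3130 ± 221) and Hspb1 last (1020 ± 108).

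Within each library the promoters of all 13245 genes were ranked by value per kb. The promoters of Hspa8, Hsph1, Dnajb1 and Hspa5 were above the 90th percentile in every library. Hspa8 ranged from the 95.2 to the 97.6 percentile and Hsph1 from the 96.3 to the 97.3 percentile. The inducible Hspa1a lay between the 84.2 and 88.8 percentiles, and Hspa1b between 49.8 and 61.1. Hspb1 was the only one of the 10 whose percentile stayed below 50 in every library, from 35.2 to 49.2, with its lowest rank in Taf4a sKO 3. Rank depended on peak width for some of them, since without division by length the mean percentile moved from 86.9 to 68.9 for Hspa1a, with its narrow peak of 927 bp, and from 70.2 to 91.9 for Hsp90ab1, with 2136 bp. For Hspb1 it moved from 43.6 to 56.4, to the other side of the median.

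**Figure D3:**
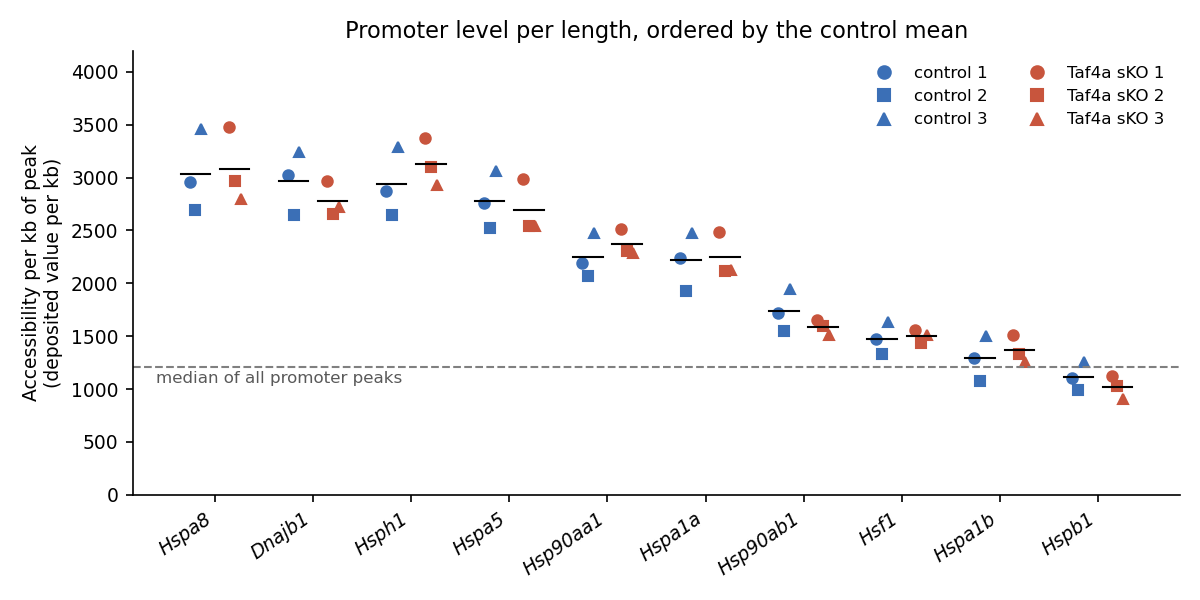
Deposited value per kb of promoter peak for each library, with genes ordered by the control mean, group means as black lines and the median of all promoter peaks (mean of the 6 libraries) as a dashed line. Hspa8, Dnajb1, Hsph1 and Hspa5 stand highest, while Hspb1 is the one gene whose group means both lie under the line.

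Peaks outside the promoters numbered 12, and 4 of them were called on the deposited scale, 2 higher and 2 lower. Over all 22 peaks this is 2 higher and 2 lower, beside 28.0% higher and 13.9% lower among all peaks tested. The calls with median-of-ratios scaling were 2 higher and 8 lower of 22, beside 25.3% and 22.5% of all peaks. Without Taf4a sKO 1 the deposited scale gave 1 higher and 5 lower, beside 23.0% and 13.2% of all peaks, and without control 2 it gave 1 higher, beside 21.3%. No member peak changed by more than 2-fold, the threshold of the study, which 7.03% of all peaks exceeded upwards and 5.36% downwards. Without Taf4a sKO 1 the weak intronic Hsf1 peak described below passed it. The values of the genotypes did not overlap at 5 of the 22 peaks, all outside promoters, while this was so for 50.3% of all peaks and 27.7% of all promoter peaks.

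Both peaks that rose lay about 8 kb upstream of a gene. The first, 8025 bp upstream of Hspb1 (chr5:135879484-135880304), had values of 1084, 973 and 1306 in control and 1485, 1437 and 1428 in Taf4a sKO MuSCs. The Taf4a sKO libraries agreed closely and all exceeded the controls. The difference was 0.38 on the log2 scale (SE 0.11, adjusted p = 0.00872 from limma) and 0.27 with median-of-ratios scaling (adjusted p = 0.00253). At the Hspb1 promoter itself the ranges of the genotypes overlapped, as given above. A weaker peak 9856 bp upstream of Hspb1 (chr5:135877904-135878223), with 165, 166 and 190 in control and 192, 167 and 170 in Taf4a sKO MuSCs, was not called (log2 fold change 0.02, SE 0.15, adjusted p = 0.924 from limma, and -0.09 with median-of-ratios scaling).

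The other peak that rose was 8053 bp upstream of Hsp90ab1 (chr17:45580905-45581743). It measured 791, 703 and 827 in control and 1082, 932 and 960 in Taf4a sKO MuSCs, with no overlap. The difference was 0.36 on the log2 scale (SE 0.11, adjusted p = 0.0137 from limma) and 0.24 with median-of-ratios scaling (adjusted p = 0.0122). The limma call was lost without control 2 (adjusted p = 0.0569) or without Taf4a sKO 1 (adjusted p = 0.0934), and with quantile normalization, where the log2 fold change was 0.15 (adjusted p = 0.0929). Upstream of the longest gene model of Hsp90aa1, peaks at 466 bp (chr12:110702856-110703532) and 4092 bp (chr12:110706464-110707176) were not called. These distances start at the 5' end of that model. The centre of the Hsp90aa1 promoter peak lies 6415 bp inside it, so both peaks are farther from that promoter. The first measured 274, 317 and 367 in control and 359, 333 and 347 in Taf4a sKO MuSCs (log2 fold change 0.13, SE 0.14, adjusted p = 0.507 from limma, and 0.01 with median-of-ratios scaling). The second measured 218, 216 and 230 against 276, 247 and 237, and although its genotypes did not overlap, the log2 fold change of 0.19 (SE 0.14) had an adjusted p of 0.304 from limma and was 0.08 with median-of-ratios scaling (adjusted p = 0.596).

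Of the peaks that fell, 1 lay inside Hspa8 but past the end of its coding transcripts (chr9:40806592-40807154). Values there were 231, 201 and 163 in control and 140, 122 and 121 in Taf4a sKO MuSCs, without overlap. The log2 fold change was -0.62 (SE 0.17, adjusted p = 0.00451 from limma), and -0.73 with median-of-ratios scaling (adjusted p = 0.00337). Its neighbour (chr9:40807444-40808334) had 211, 190 and 218 in control and 194, 149 and 128 in Taf4a sKO MuSCs. Taf4a sKO 1 overlapped with the controls and the other Taf4a sKO libraries were below them, a log2 fold change of -0.41 (SE 0.17) that just missed the call (adjusted p = 0.0522 from limma). It was called by limma with median-of-ratios scaling (-0.52, adjusted p = 0.0108), without Taf4a sKO 1 (adjusted p = 0.0127) and with the replicate number as a block (adjusted p = 0.0382).

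The second peak that fell was the weak intronic peak of Hsf1 without an assigned gene (chr15:76490539-76490771). Its values were 63, 58 and 70 in control and 44, 32 and 30 in Taf4a sKO MuSCs. The groups were apart, with a log2 fold change of -0.85 (SE 0.25, adjusted p = 0.00742 from limma), the largest of the 22, and -0.96 with median-of-ratios scaling (adjusted p = 0.00282). A stronger peak in another stretch of Hsf1 intron (chr15:76484440-76485805) measured 971, 875 and 1009 in control and 1014, 761 and 836 in Taf4a sKO MuSCs. It was not called on the deposited scale (log2 fold change -0.14, SE 0.12, adjusted p = 0.386 from limma), where Taf4a sKO 1 was the highest library of all, and fell with median-of-ratios scaling (-0.25, adjusted p = 0.0277).

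Downstream of Hspa5, inside the neighbour Rabepk, 2 peaks set the Taf4a sKO libraries apart from each other. The first (chr2:34777925-34778781) had values of 242, 189 and 170 in control and 279, 147 and 101 in Taf4a sKO MuSCs. The second (chr2:34779265-34780156) had 242, 210 and 209 in control and 300, 167 and 101 in Taf4a sKO MuSCs. In both, Taf4a sKO 1 was above every control and Taf4a sKO 2 and 3 were below every control. The log2 fold changes of -0.30 (SE 0.34, adjusted p = 0.535 from limma) and -0.35 (SE 0.36, adjusted p = 0.482) were therefore not called (-0.41 and -0.47 with median-of-ratios scaling, not called either). Without Taf4a sKO 1 both peaks fell in limma (-0.70, adjusted p = 0.00669, and -0.75, adjusted p = 0.00333). Without Taf4a sKO 3 neither fell (0.032, adjusted p = 0.93 from limma, and 0.026, adjusted p = 0.937). Downstream of Hspa1b (chr17:34951945-34953198) the values were 1077, 997 and 1212 in control and 1182, 1154 and 1191 in Taf4a sKO MuSCs, which overlapped (log2 fold change 0.11, SE 0.11, adjusted p = 0.458 from limma, and -0.01 with median-of-ratios scaling).

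**Figure D4:**
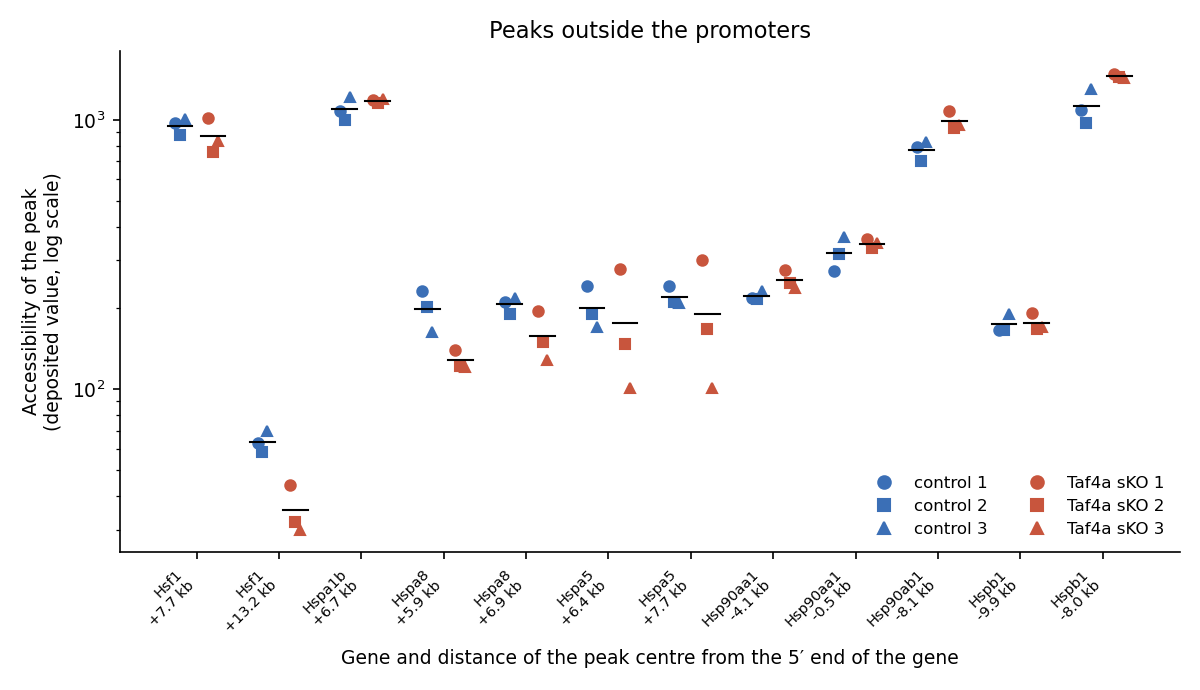
Deposited value on a log axis for the 12 peaks outside promoters in each library, labelled by gene and distance of the peak centre from its 5' end, with black lines for the group means. The genotypes are apart at 5 of them, and the 2 peaks downstream of Hspa5 show Taf4a sKO 1 far above Taf4a sKO 3.

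Libraries of the same genotype differed at these promoters in a common pattern. Among controls, control 3 was the highest and control 2 the lowest at all 10 promoters, and among Taf4a sKO libraries, Taf4a sKO 1 was the highest at all 10 and Taf4a sKO 3 the lowest at 7. The order was much the same over all promoter peaks, whose median deviation from their own mean over the 6 libraries on the log2 scale was -0.035, -0.154 and 0.103 in control and 0.068, 0.010 and 0.010 in Taf4a sKO MuSCs, beside -0.002, -0.158 and 0.170 and 0.127, -0.043 and -0.075 for the 10. The median SD of the log2 values within a genotype was 0.163 in control and 0.116 in Taf4a sKO MuSCs, beside 0.137 and 0.064 for all promoter peaks. Median-of-ratios scaling reduced it to 0.048 in control and 0.082 in Taf4a sKO MuSCs, beside 0.059 and 0.056 for all promoters. On that scale the SD in Taf4a sKO MuSCs was highest for Hspb1 (0.134), Hspa8 (0.127) and Hspa1b (0.103), and Hspa1b was also the most variable in control MuSCs.

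With each promoter centred on its mean over the 6 libraries, the order of the libraries differed between the scales. With median-of-ratios scaling the median deviation of the 10 promoters was 0.091, 0.005 and 0.083 in the control libraries and 0.025, -0.068 and -0.117 in the Taf4a sKO libraries. For all promoters these medians were 0.058, 0.009 and 0.016 in control and -0.034, -0.014 and -0.032 in Taf4a sKO MuSCs. For the 10 promoters control 2 and Taf4a sKO 1 thus lay between the other controls and the other Taf4a sKO libraries, while for all promoters this was so of control 2 but not of Taf4a sKO 1.

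Among 73 other chaperone genes, 69 had a promoter peak and were tested. They shared 67 peaks, since Cryab and Hspb2 have 1 peak in common, as do the chaperonins Hspd1 and Hspe1, and the peak of Hspa1l is that of Hspa1a described above. On the deposited scale 4 rose and 1 fell, beside 9.54% and 4.55% of all promoter peaks, with a median log2 fold change of 0.037 beside 0.058. With median-of-ratios scaling 4 rose and 12 fell, beside 9.66% and 23.1%, and the median was -0.076 beside -0.055. The peak of Cryab and Hspb2 counts as 2 of these 12 falls, which lay in 11 distinct peaks. The number that rose on the deposited scale was 13 without control 3, where the share of all promoters that rose went from 9.54% to 27.7% and their median from 0.058 to 0.123, and the 1 that fell was lost without control 1, Taf4a sKO 2 or Taf4a sKO 3. Hspb8, a small heat shock protein of muscle that works with BAG3 in autophagy of damaged proteins, measured 443, 455 and 601 in control and 1045, 970 and 1031 in Taf4a sKO MuSCs. Each Taf4a sKO library was above each control, and the log2 fold change of 1.03 (SE 0.13, adjusted p = 9.23e-07 from limma) was the largest of the list, and it was 0.92 with median-of-ratios scaling (adjusted p = 2.88e-06). Hspb3, a muscle-restricted small heat shock protein, had 213, 243 and 272 in control and 444, 404 and 424 in Taf4a sKO MuSCs. The groups were again apart (log2 fold change 0.81, SE 0.14, adjusted p = 6.58e-05 from limma, and 0.70 with median-of-ratios scaling).

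The other promoters that rose belonged to Fkbp5, an HSP90 cochaperone induced by glucocorticoids, and Dnajb5, an HSP40. Fkbp5 measured 1452, 1432 and 1891 in control and 2262, 1973 and 2026 in Taf4a sKO MuSCs (log2 fold change 0.40, SE 0.11, adjusted p = 0.00684 from limma, and 0.29 with median-of-ratios scaling). Dnajb5 measured 3652, 3266 and 3952 in control and 4595, 4226 and 4102 in Taf4a sKO MuSCs (0.25, SE 0.10, adjusted p = 0.0478 from limma, and 0.14 with median-of-ratios scaling). In both, all Taf4a sKO libraries exceeded all controls, and both were called on either scale. On the deposited scale Dnajb5 was called in 1 of the 6 fits that left a library out, the one without control 3, whereas Hspb8, Hspb3 and Fkbp5 were called in all 6. Hspa12b, a distant HSP70 relative known from endothelium, fell from 554, 467 and 517 in control to 448, 395 and 382 in Taf4a sKO MuSCs (log2 fold change -0.33, SE 0.13, adjusted p = 0.0453 from limma, and -0.44 with median-of-ratios scaling). None of the 10 genes of ER chaperones and the unfolded protein response was called on the deposited scale and none reached an unadjusted p under 0.05 in limma, beside 19.3% of all promoters, and with median-of-ratios scaling 2 of them fell, beside 23.1%. Of the 9 chaperonin genes tested, 0 were called on the deposited scale (0 at an unadjusted p under 0.05 in limma) and 1 fell with median-of-ratios scaling, beside the same shares of all promoters.

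Immediate early genes, which are switched on within minutes of tissue dissociation, were taken from a list of 15, all of which had a promoter peak. On the deposited scale 3 fell and none rose in limma, 6 had an unadjusted p under 0.05, and the median log2 fold change was -0.195. Of all promoters 4.55% fell, 9.54% rose and 19.3% had an unadjusted p under 0.05, with a median of 0.058. With median-of-ratios scaling 10 of the 15 fell, beside 23.1% of all promoters, and the median was -0.308 beside -0.055. The largest fall was at Ier2, an immediate early transcriptional regulator, with 3740, 3319 and 4149 in control and 3042, 2713 and 2725 in Taf4a sKO MuSCs (log2 fold change -0.40, SE 0.10, adjusted p = 0.00347 from limma, and -0.51 with median-of-ratios scaling). Btg2, an antiproliferative gene, measured 4357, 3796 and 4703 in control and 3430, 3260 and 3227 in Taf4a sKO MuSCs (-0.37, SE 0.10, adjusted p = 0.00502 from limma, and -0.48 with median-of-ratios scaling). At both, every Taf4a sKO library was below every control. Junb, an AP-1 subunit, measured 3537, 2918 and 3597 in control and 3011, 2730 and 2614 in Taf4a sKO MuSCs, where Taf4a sKO 1 overlapped with control 2 (-0.26, SE 0.11, adjusted p = 0.0484 from limma, and -0.38 with median-of-ratios scaling). Ier2 and Btg2 were called in all 6 fits without a library, and Junb in 2, those without control 2 or Taf4a sKO 1. The count depended on single libraries, since 9 promoters fell without control 2 and 5 without Taf4a sKO 1, beside 4.92% and 3.75% of all promoters.

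**Figure D5:**
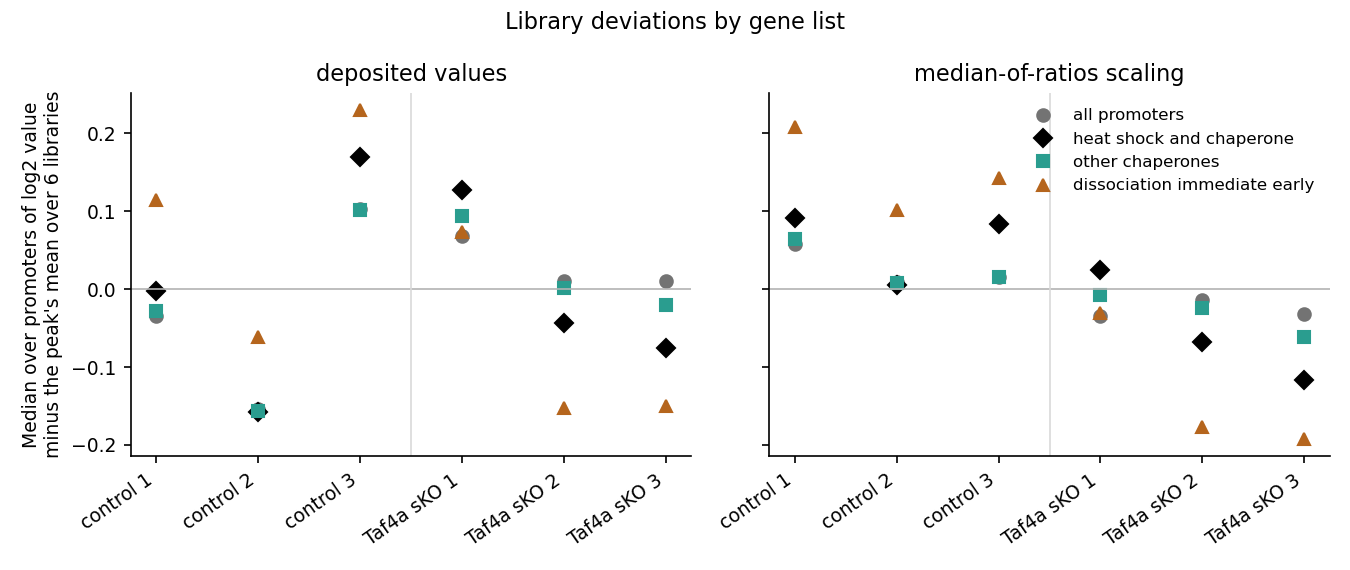
For each library, the median over a gene list of the log2 promoter value minus that promoter's mean over the 6 libraries, on the deposited scale (left) and with median-of-ratios scaling (right), for all promoters (grey circles), the 10 heat shock and chaperone genes (black diamonds), the other chaperones (green squares) and the immediate early genes (brown triangles). With median-of-ratios scaling the 10 genes sit at 0.091, 0.005 and 0.083 in control and 0.025, -0.068 and -0.117 in Taf4a sKO libraries. On the deposited scale the median of these 10 genes in control 2 is below that in all Taf4a sKO libraries, though at Hsp90ab1 and Hspb1 Taf4a sKO 3 is below control 2.

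Markers of cell types were examined in the same libraries. Of 24 marker genes, 12 had a promoter peak: the MuSC markers Pax7, Myf5, Myod1, Calcr, Itga7, Vcam1, Sdc4 and Des, the leukocyte marker Cd68, the endothelial marker Kdr and the mesenchymal markers Pdgfra and Dpt. All 8 MuSC markers were thus present, with Pax7 between the 63.1 and 90.6 percentiles per kb and Vcam1 the lowest, between 14.5 and 22.7. Of the markers of other cell types, Kdr lay between the 2.6 and 5.3 percentiles, Pdgfra between 28.5 and 32.6, Cd68 between 17.8 and 47.3 and Dpt between 31.4 and 51.2. The last 3 were thus in the range of several MuSC markers, such as Myf5 (29.5 to 43.0) and Calcr (32.0 to 41.2). The leukocyte markers Ptprc, Cd3e and Adgre1, the endothelial markers Pecam1, Cdh5 and Tie1, the mesenchymal markers Ly6a and Lum and the myofibre markers Acta1, Ckm, Myh4 and Tnnt3 had no promoter peak here and were not analysed.

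Of these 12 markers, 2 rose and 3 fell on the deposited scale, beside 9.54% and 4.55% of all promoters. With median-of-ratios scaling 2 rose and 6 fell, beside 9.66% and 23.1%. Pax7 measured 4533, 3128 and 3729 in control and 3084, 2923 and 3026 in Taf4a sKO MuSCs, where it fell (log2 fold change -0.32, SE 0.11, adjusted p = 0.0302 from limma, and -0.43 with median-of-ratios scaling). Myod1, the factor of activated MuSCs, rose from 1591, 1710 and 1866 to 2302, 1949 and 2076 (0.29, SE 0.11, adjusted p = 0.0284 from limma, and 0.18 with median-of-ratios scaling), and Vcam1 from 572, 534 and 540 to 749, 697 and 658 (0.35, SE 0.12, adjusted p = 0.0184, and 0.24 with median-of-ratios scaling). Cd68, of macrophages, fell from 201, 208 and 307 to 129, 133 and 129 (-0.84, SE 0.17, adjusted p = 0.00037 from limma, and -0.95 with median-of-ratios scaling), and Dpt, of fibroblasts, from 481, 454 and 554 to 372, 348 and 350 (-0.47, SE 0.13, adjusted p = 0.00539, and -0.58 with median-of-ratios scaling). Cd68 and Dpt were called in all 6 fits on the deposited scale that left a library out. Pax7 was called only in the fit without control 2, Myod1 was lost without control 1, Taf4a sKO 1 or Taf4a sKO 3, and Vcam1 without Taf4a sKO 1 or 2. The MuSC markers Des (-0.25), Myf5 (-0.22) and Sdc4 (-0.05) were not called on the deposited scale. With median-of-ratios scaling limma also called falls of Des (-0.36, adjusted p = 5.44e-05), Myf5 (-0.34, adjusted p = 0.00021) and Sdc4 (-0.17, adjusted p = 0.0149). Summed over the 4 markers of other cell types with a promoter peak, the value was 1981, 1881 and 2302 in control and 2009, 1884 and 1870 in Taf4a sKO MuSCs, most of it in the broad Pdgfra peak. Per kilobase Dpt was the highest of the 4 in each library. The 8 MuSC markers summed to 15510, 13230 and 15912 in control and 14667, 13796 and 13969 in Taf4a sKO MuSCs. The part of other cell types in the chaperone and immediate early values was not tested.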

How the data were processed

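ATAC-seq of freshly isolated MuSCs was analysed from the table of values per peak, in 3 control and 3 Taf4a sKO libraries, grouped by the sample labels. According to the submitters' processing notes, the tools were Trimmomatic 0.39, STAR 2.7.11b, Picard 3.1.1 and featureCounts, with build mm10. Reads that were duplicates, spliced, mapped to several places or came from ribosomal or mitochondrial sequence were discarded, and MACS peaks were merged into 1 set for all libraries before counting. The deposited score of a peak is that count, which the authors multiplied by a depth factor for each library and rounded. Judged from the whole numbers that never occur, the factors were 1.389, 1.001 and 1.232 in control and 1.388, 1.37 and 1.29 in Taf4a sKO libraries. No shift of reads for Tn5 is described in the methods. The authors tested with DESeq2. No other column of values per sample was left unused.

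Scores are not counts, so limma 3.58.1 (R 4.3.3) was run on log2(score + 1), with eBayes set to trend and robust, over peaks with a mean above 10. Fold changes of low peaks are understated by the added 1. A promoter peak is the strongest peak over a start site of a coding transcript in GENCODE vM21, whose build GRCm38 has the coordinates of mm10. Sequences are from RefSeq, where 6 of the 10 genes matched by symbol. The genes, the lists of other chaperones, immediate early genes and markers and the tests were chosen with earlier results of these data known. Named genes are all 10 genes with all their peaks, every marker and, of each list, up to 5 rises and 5 falls that were called. Two-sided tests rest on 3 libraries a genotype, which limits their precision. Alternatives covered the scaling, the added value, the filter, a replicate block and each replicate left out.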

Additional observations from a re-analysis of the deposited data

How the results depend on the processing

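Scaling between libraries decided most of what changed. Of the 22 peaks, 2 were called higher and 2 lower on the deposited scale. With median-of-ratios factors 2 were higher and 8 lower, with the total value in peaks 2 and 9, and with quantile normalization 1 and 9. Of all peaks 13.9% were lower on the deposited scale and 22.5%, 25.8% and 25.1% under these scalings, and 28.0%, 25.3%, 23.4% and 24.8% were higher. Lower promoters numbered 4, 5 and 5 in that order, those of other chaperones 12, 28 and 28, and those of immediate early genes 10, 12 and 12, while of all promoters 23.1%, 34.8% and 35.9% were lower, against 4.55% on the deposited scale. With a minimum mean of 50, 2 of the 22 were higher and 1 was lower, since the weak Hsf1 intron peak was not tested. Of all peaks tested under that filter 29.2% were higher and 12.4% lower. At a 1.5-fold threshold 2 of the 22 peaks were lower and 0 were higher. No share of all peaks is given at that threshold, so this count describes the 22 peaks only.

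Several log2 fold changes changed sign, given here for median-of-ratios factors, total value and quantile normalization in that order. They were -0.08, -0.12 and -0.10 for the Hsf1 promoter, -0.033, -0.068 and -0.037 for Hsp90aa1, -0.091, -0.13 and -0.11 for Hspa1a, -0.023, -0.059 and -0.048 for Hspa1b, -0.090, -0.13 and -0.063 for Hspa8 and -0.016, -0.052 and -0.011 for Hsph1. Outside promoters they were -0.006, -0.042 and -0.074 downstream of Hspa1b and -0.090, -0.13 and -0.11 at the far Hspb1 peak, and under the last 2 scalings -0.022 and -0.081 at the nearer Hsp90aa1 upstream peak. The added value of 10 and no filter changed no call among the 22 peaks.

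Leaving out each replicate in turn gave 1 to 2 peaks higher and 2 to 5 lower, 3 to 13 other chaperones higher and 0 to 1 lower, 2 to 9 immediate early genes lower, and 0 to 1 peaks past the 2-fold threshold. In these fits 21.3% to 37.8% of all peaks were higher and 11.4% to 13.3% lower. Of all promoters 5.99% to 27.7% were higher and 2.98% to 4.92% lower. The 13 chaperones and the 27.7% belong to the same fit, without control 3. No share of all peaks past the 2-fold threshold is given for these fits. The log2 fold changes that changed sign ranged from -0.04 to 0.11 for the Hsf1 promoter, -0.074 to 0.11 for Hspa1a, -0.032 to 0.2 for Hspa1b, -0.13 to 0.023 for Hspa5 and -0.067 to 0.12 for Hspa8. They ranged from -0.7 to 0.032 and from -0.75 to 0.026 at the Hspa5 downstream peaks, and from -0.04 to 0.088 at the far Hspb1 peak. The median-of-ratios fits without a replicate and the search for 2 adjacent heat shock units were chosen after seeing the data.

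Pairing by replicate number was not detected, with correlations of 0.11, -0.118 and -0.0289 between the deviations of same-numbered libraries from their genotype means. With 3 libraries behind each mean, these values cannot exclude a pairing. The replicate block gave 2 higher and 3 lower of the 22 peaks, adding the second Hspa8 peak, and no promoter among the 10. With the block 29.1% of all peaks were higher and 14.6% lower, and of all promoters 9.0% were higher and 4.57% lower. The block gave 3 other chaperones higher and 1 lower, and 3 immediate early genes lower. The calls of Dnajb5 (adjusted p = 0.0694 from limma) and Junb (adjusted p = 0.0567 from limma) were lost. Another immediate early promoter was called instead of Junb, so these 3 genes are not the same as in the main fit. Between other libraries the correlations ran from -0.12 to 0.151. With 3 libraries a genotype, promoter differences smaller than the shift between scalings cannot be told apart from it.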
